A study of Homo sapiens with 12 samples.

Results

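The cytosolic ribosomal proteins were taken as the protein-coding genes, present in both deposited count tables, whose symbol is RPL or RPS followed by a number and an optional A, X or L, together with RPLP0, RPLP1, RPLP2 and RPSA. The rule uses names only and no measured value. It gave 84 rows with 83 symbols among the 23238 genes that the tables share, out of 26226 genes in the KBM7 table and 28328 in the K562 table. Of these rows, 52 carry the RPL prefix of the large subunit and 32 the RPS prefix of the small subunit. RPL41 has 2 rows, of which the second, on chromosome 7, held 3 to 26 counts in a library. The rule also takes in paralog copies (RPL7L1, RPL22L1, RPL26L1, RPL39L, RPS27L and RPL3L), and RPL3L, the muscle copy of RPL3, held 0 to 1 counts in a library and was not tested.

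The series profiled RNA from KBM7 and K562, which are both established lines from chronic myeloid leukemia in blast crisis, after knockdown of the deubiquitinase USP15. The groups were KBM7 with USP15 siRNA (siUSP15, 2 libraries) and with control siRNA (siCtrl, 2 libraries), and K562 with siUSP15 (4 libraries) and with siCtrl (4 libraries). RNA was taken 72 h after transfection with Lipofectamine RNAiMAX, and a single siGENOME pool against USP15 was set against a single non-targeting pool, so loss of USP15 cannot be told apart from other effects of the pool. No source says that replicates were separate cultures, so p-values measure the spread between these libraries, which may be technical. The K562 libraries fell into 2 sets that no label names (set 1, replicates 1 and 2, and set 2, replicates 3 and 4), each with both siRNAs, and each set was given its own level in the fit.

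Ribosomal proteins coat the ribosomal RNA of the small and the large subunit, and nearly every one is needed in a single copy per ribosome, so their mRNAs are abundant and tend to keep steady proportions. In vertebrates most of these mRNAs begin with a cytosine and a run of pyrimidines, the 5′ terminal oligopyrimidine (TOP) tract, through which mTORC1 controls their translation. Blood formation depends on them, since loss of a copy of several of these genes causes Diamond-Blackfan anemia, and unassembled RPL5 and RPL11 bind MDM2.

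USP15 itself was lower in all siUSP15 libraries than in the siCtrl libraries of the same line and set: it had 113 and 114 CPM (counts scaled to library size, with TMM factors within a line) in KBM7 siUSP15 libraries and 209.8 and 216 CPM in siCtrl libraries. In K562 it had 116 and 134 CPM in set 1 and 191 and 197 CPM in set 2 with siUSP15, against 269 and 275 CPM in set 1 and 343 and 330.2 CPM in set 2 with siCtrl. By these fits 53.4% of the control level was left in KBM7, 46.2% in K562 set 1 and 57.6% in set 2. Total counts ran from 23020401 to 43566543 per library. The ribosomal protein genes took 4.42% to 4.68% of them in KBM7 libraries and 5.28% to 5.52% in K562 libraries. The erythroid genes GATA1 (211 to 272 CPM) and HBG1 (390.2 to 530.1 CPM) marked K562, and CD34 (428 to 532 CPM), SPI1 (93.5 to 122 CPM) and CD33 (79.9 to 97.4 CPM) marked KBM7. Markers of T cells, B cells and fibroblasts stayed at or below 18.4 CPM in both lines, while the epithelial marker EPCAM had 82.5 to 97.0 CPM in K562. In K562 the first principal component held 61.4% of the variance over all genes and 67.1% over the ribosomal protein genes, and in both cases it separated set 1 from set 2. The mitochondrial share of counts also differed between the sets (4.83% to 5.43% in set 1 and 3.2% to 3.27% in set 2), and its part in the set differences below was not tested. In bulk libraries fewer cells of a type and less RNA per cell cannot be told apart.

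The start sites of the genes that the comparisons turn on are shown because the TOP tract is the sequence that these mRNAs share. Each sequence runs 5′ to 3′ over 24 bases of RefSeq GRCh38.p14, from 12 bases before the annotated start, and capitals mark the longest run of C and T near the start.
RPS12 (chr6:132814557-132814580, plus strand): tgcggatgaggCCTCTTTCCCTgc
RPL13A (chr19:49487596-49487619, plus strand): caaaaCCTCCTCCTTTTCCaagcg
RPL28 (chr19:55385920-55385943, plus strand): cccctcgCCTTCCTCTTTCCgtct
RPLP1 (chr15:69452806-69452829, plus strand): taggcgcgagagCCCCTTTCCTCa
RPL24 (chr3:101686707-101686730, minus strand): ccatgaTTCTCTCTTTCTTTTCgc
RPS23 (chr5:82278343-82278366, minus strand): tgcggtgCTTCTCTCTTTCgctca
RPS26 (chr12:56041906-56041929, plus strand): acacataacctcgaTTTTCTTCCg
RPS27L (chr15:63157466-63157489, minus strand): ttgatgccgagcgcagatcgCTTg

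The 6 genes listed first have a pyrimidine run of 11 to 16 bases that covers the annotated start. In RPS26 the run lies 2 bases after the annotated start, and RPS27L, the copy of RPS27, has no run over 3 bases there. RefSeq starts were matched for 66 of the 83 symbols (82 starts). At 47 of these 66 genes (71.2%) a listed start was a C followed by at least 4 pyrimidines, against 833 of 11785 protein-coding genes (7.07%). A pyrimidine run of at least 8 bases near a start was found for 81.8% of the ribosomal protein genes and for 15.1% of the protein-coding genes. The letters CCGGAAG, on either strand of the window of 300 bases around a start, were found for 36.4% of the ribosomal protein genes and 19.3% of the protein-coding genes, and CACGTG for 7.58% and 12%. The match of these letters is a description of the windows and says nothing of binding.

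Ribosomal protein mRNAs moved little with siUSP15 in either line. In KBM7, 2 of 83 tested genes were higher and 1 was lower at an adjusted p under 0.05 (edgeR quasi-likelihood test, Benjamini-Hochberg over all genes), or 3.61%, where 29% of the 14980 genes tested passed (13.2% higher and 15.8% lower). In K562 set 1, 9 of 82 were higher and 5 lower, or 17.1%, where 35.7% of all 14337 genes passed (17.5% higher and 18.2% lower). In K562 set 2 none was called, where 2.29% of all genes passed (1.11% higher and 1.19% lower). The median log2 fold change of the ribosomal protein genes was 0.02 in KBM7, -0.00 in set 1 and -0.05 in set 2, against 0.00, -0.01 and 0.00 for all genes tested. The sign of the set 1 median turned with the scaling (0.00 with RLE size factors, 0.01 with TMM factors computed without ribosomal protein genes and -0.02 with total counts), while the set 2 median stayed below 0 (-0.05, -0.04 and -0.03). The estimates were narrow: the 95% confidence interval of the log2 fold change lay between -0.25 and 0.25 for 74 of 83 genes in KBM7, for 74 of 82 in set 1 and for 80 of 82 in set 2. In all 12 libraries 82 of the 84 rows held at least 100 counts and 74 held at least 1000.

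**Figure D1:**
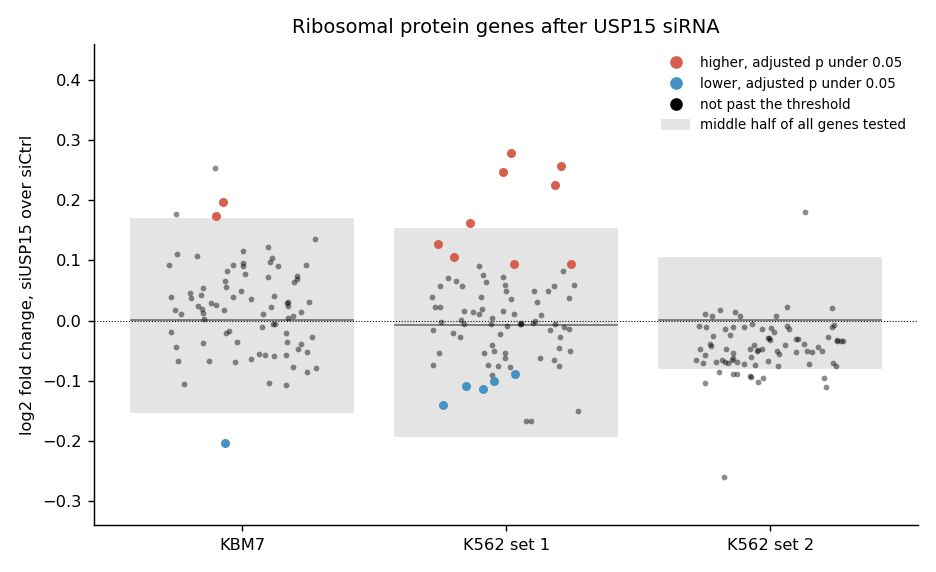
Log2 fold change of normalized CPM, siUSP15 over siCtrl, for each ribosomal protein gene tested (points, without the second RPL41 row) in KBM7, K562 set 1 and K562 set 2, with the range between the quartiles of all genes tested as grey boxes and their median as a line. Calls at an adjusted p under 0.05 are coloured, and number 2 higher and 1 lower in KBM7, 9 higher and 5 lower in set 1, and 0 in set 2.

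In KBM7 the small-subunit gene RPS12 and the large-subunit gene RPL38 were higher with siUSP15 and the large-subunit gene RPL13A was lower. RPS12 had 584 and 580.0 CPM in siUSP15 libraries and 515 and 499.8 CPM in siCtrl libraries. Both siUSP15 libraries lay above both siCtrl libraries, with a log2 fold change of 0.20 (SE 0.0418, edgeR adjusted p = 0.00437). RPL38, which in mice is needed for the translation of a subset of Hox mRNAs, had 223 and 219 CPM with siUSP15 and 201 and 191 CPM with siCtrl. These groups did not overlap either, and the log2 fold change was 0.17 (edgeR adjusted p = 0.0121), which became 0.15 (adjusted p = 0.116) without siCtrl replicate 2. RPL13A, which is known also to leave the ribosome and repress translation of inflammatory mRNAs in interferon-treated myeloid cells, had 1132 and 1129 CPM with siUSP15 and 1326 and 1279 CPM with siCtrl. Its siUSP15 libraries lay below both siCtrl libraries, with a log2 fold change of -0.20 (SE 0.0438, edgeR adjusted p = 0.00476). RPS12 and RPL13A kept their calls in all 4 fits that left out a library.

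In all, 12 of 83 genes in KBM7 had an unadjusted p under 0.05, 53 had a log2 fold change above 0 and 30 below. The largest value in KBM7 belonged to the second RPL41 row, at 0.67 (95% interval -0.31 to 1.64), which rests on few counts and did not pass. The split of calls in KBM7 moved with the scaling, to 9 higher and 1 lower when libraries were scaled by total count only. Leaving out siUSP15 replicate 2 gave 13 higher and 1 lower, leaving out siUSP15 replicate 1 gave 2 higher and 5 lower, and leaving out siCtrl replicate 2 gave 1 higher and 1 lower.

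**Figure D2:**
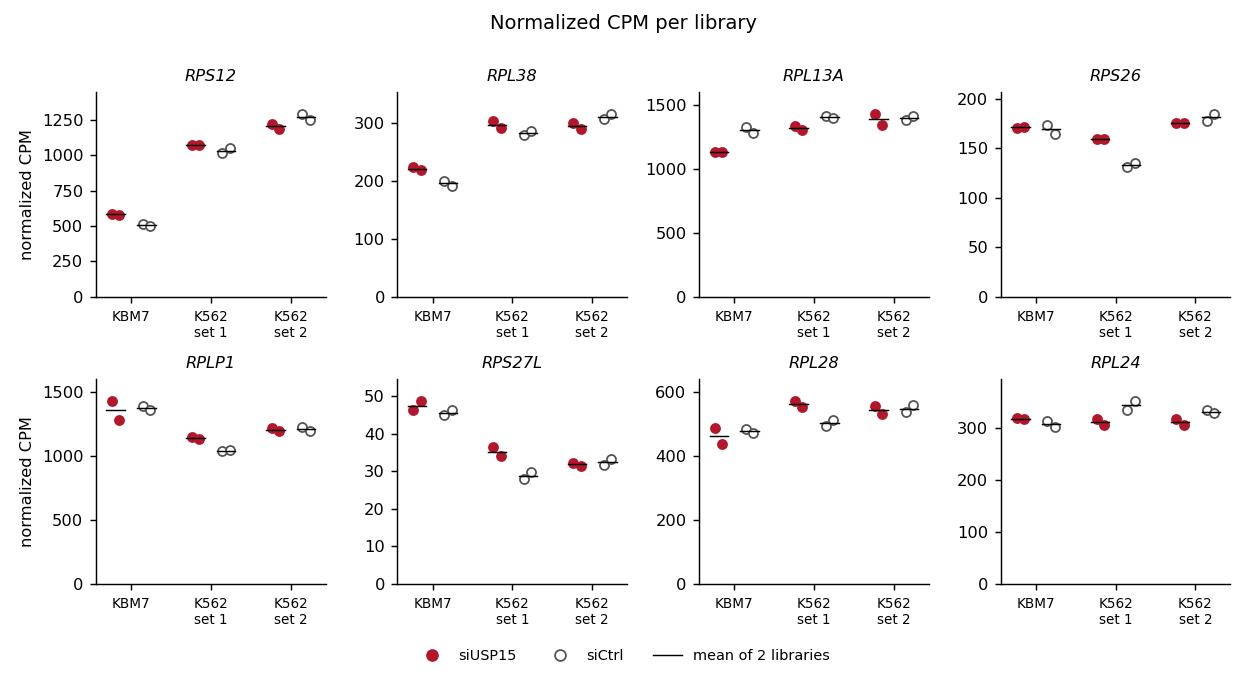
Normalized CPM per library (y axis, from 0) of 8 ribosomal protein genes in KBM7, K562 set 1 and K562 set 2, siUSP15 filled and siCtrl open, with a bar at the mean of each group of 2 libraries. RPS12, RPL38 and RPL13A separate the siRNAs in KBM7, while RPS26 and RPS27L are higher in both siUSP15 libraries of set 1 and in set 2 have log2 fold changes of -0.05 and -0.02.

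In K562 set 1 RPS27L and RPS26, both of the small subunit, had the largest increases. RPS27L, the copy of RPS27, had 36.5 and 33.97 CPM with siUSP15 and 27.9 and 29.9 CPM with siCtrl. The siUSP15 libraries were the higher ones without overlap, and the log2 fold change was 0.28 (SE 0.0606, edgeR adjusted p = 0.00191). RPS26, which lies at the mRNA exit channel and is a Diamond-Blackfan anemia gene, had 159 and 159 CPM with siUSP15 and 131 and 135 CPM with siCtrl. Replicates of a group lay close together and the groups far apart for RPS26, with a log2 fold change of 0.26 (SE 0.0397, edgeR adjusted p = 0.000117). RPS27L and RPS26 kept their calls in all 8 fits that left out a library.

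The other increases named in set 1 were smaller. RPL26L1, the copy of RPL26, had 22.3 and 22.6 CPM with siUSP15 and 19.5 and 18.9 CPM with siCtrl, a log2 fold change of 0.23 (edgeR adjusted p = 0.0180), and lost its call without siCtrl replicate 1 (adjusted p = 0.0580), siCtrl replicate 2 (0.115) or siUSP15 replicate 2 (0.0820). RPL28, a large-subunit protein without a counterpart in Saccharomyces cerevisiae, had 573 and 554 CPM with siUSP15 and 493 and 513 CPM with siCtrl. Its groups did not overlap, and its log2 fold change was 0.16 (edgeR adjusted p = 0.00349), which became 0.14 (adjusted p = 0.0725) without siCtrl replicate 1. Of the stalk, which recruits the GTPases of translation, RPLP1 rose (log2 fold change 0.13, edgeR adjusted p = 0.00471) and so did RPLP2 (0.11, edgeR adjusted p = 0.0460), whose call was lost in the 4 fits that left out a set 1 library and with scaling by total count. RPLP1 had 1147 and 1135 CPM with siUSP15 and 1039 and 1051 CPM with siCtrl, and its call was lost without siCtrl replicate 1 (adjusted p = 0.0685). The stalk base RPLP0 had a log2 fold change of -0.02 and did not pass. RPS2, near the mRNA entry of the small subunit, and RPL10A, the protein of the L1 stalk, had log2 fold changes of 0.09 (edgeR adjusted p = 0.0290) and 0.09 (edgeR adjusted p = 0.0481), and lost their calls in 3 and 6 of the 8 fits that left out a library.

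The 5 decreases in set 1 were between -0.14 and -0.09 on the log2 scale. RPL24, which forms a bridge between the subunits, had 317 and 306 CPM with siUSP15 and 334 and 351 CPM with siCtrl. The siUSP15 libraries were the lower ones without overlap, and the log2 fold change was -0.14 (SE 0.0393, edgeR adjusted p = 0.0104). It became -0.10 (adjusted p = 0.187) without siCtrl replicate 2 and -0.11 (adjusted p = 0.0936) without siUSP15 replicate 2. RPS23, at the decoding center, had 589.6 and 588 CPM with siUSP15 and 618 and 656 CPM with siCtrl, a log2 fold change of -0.11 (edgeR adjusted p = 0.0278) that fell short in 5 of 8 fits without a library and was -0.07 (adjusted p = 0.381) without siCtrl replicate 2. RPS25, which several viral internal ribosome entry sites need, had -0.11 (edgeR adjusted p = 0.0274) and was lost in 6 of 8 fits, with -0.08 (adjusted p = 0.293) without siCtrl replicate 2. RPL15 had -0.10 (edgeR adjusted p = 0.0337) and was lost in all 8. The split of calls in set 1 was 6 higher and 10 lower with scaling by total count, and 9 higher and 3 lower with RLE size factors or with TMM factors computed without ribosomal protein genes. With the replicate number as a block it was 10 higher and 8 lower. Without siCtrl replicate 1 the fit called 3 higher and 2 lower, 5 and 0 were left without siCtrl replicate 2, and 5 and 1 without siUSP15 replicate 2. The counts were 7 and 2 without siUSP15 replicate 1, and the libraries of set 2, which bear on set 1 through the shared spread, scaling and filter, gave 10 and 3 (siUSP15 replicate 3 or 4 left out) or 8 and 1 (siCtrl replicate 3 or 4 left out).

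In K562 set 2 no ribosomal protein gene passed the threshold in edgeR, DESeq2 or limma-voom, and 14 of 82 had an unadjusted p under 0.05 in edgeR. The values leaned to one side: 73 of 82 genes had a log2 fold change below 0 and 9 above. Over the 8 fits without a library the median ran from -0.07 (without siUSP15 replicate 3) to -0.02 (without siUSP15 replicate 4). These genes were measured in the same libraries, so they are not independent replicates of the lean. RPS23 had 630.0 and 599 CPM with siUSP15 and 667 and 659 CPM with siCtrl. Its siUSP15 libraries were the lower ones, with a log2 fold change of -0.11 (95% interval -0.19 to -0.03, edgeR adjusted p = 0.147). RPL4, which lines the peptide exit tunnel, had 1949 and 1854 CPM with siUSP15 and 2027 and 2029.6 CPM with siCtrl. These groups did not overlap, and the log2 fold change was -0.09 (95% interval -0.16 to -0.02, edgeR adjusted p = 0.148). The genes that rose most in set 1 had log2 fold changes in set 2 of -0.02 (RPS27L) and -0.05 (RPS26), neither past the threshold. For RPS26 the interval in set 2 was -0.13 to 0.04, with 175 and 175 CPM in siUSP15 libraries and 178 and 184 CPM in siCtrl libraries.

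Averaged over both K562 sets, 4 genes were higher and 8 lower (14.6% of 82, where 28.7% of all genes passed, 14.5% higher and 14.2% lower), and the median was -0.02. RPS27L (0.13), RPS26 (0.10) and RPL28 (0.08) were among the increases, although these averages join a set 1 response with a set 2 value near 0, and lost their calls in 4, 1 (without siCtrl replicate 1) and 5 of the 8 fits without a library. Of the decreases, RPS23 (-0.11), RPL24 (-0.11) and RPS25 (-0.10) were below 0 in both sets, at -0.11, -0.14 and -0.11 in set 1 and at -0.11, -0.09 and -0.09 in set 2, where none of the 3 passed. RPL4, RPS24, RPL34, RPL15 and RPL35A fell by 0.08, 0.08, 0.08, 0.08 and 0.07 on the log2 scale, and lost their calls in 4, 6, 7, 7 and 7 of the 8 fits. Without siCtrl replicate 2 the count of decreases was 0, with RPL24 at -0.10 (adjusted p = 0.0575), RPS23 at -0.09 (adjusted p = 0.0619) and RPS25 at -0.09 (adjusted p = 0.0679), and without siCtrl replicate 1 the counts were 1 higher and 5 lower. They were 4 and 4 without siUSP15 replicate 2, 2 and 3 without siCtrl replicate 3, 5 and 5 without siCtrl replicate 4, 2 and 9 without siUSP15 replicate 3, and 5 and 3 without siUSP15 replicate 4. With the replicate number as a block the mean gave 5 higher and 14 lower, with scaling by total count 3 and 12, and with TMM factors computed without ribosomal protein genes 5 and 6. Without a term for the set it gave 0 and 0.

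The response of set 1 minus that of set 2 was tested as an interaction, and 4 of 82 genes passed, all with the larger value in set 1 (4.88%, where 12.5% of all genes passed, 6.77% with the larger value in set 1 and 5.73% with the smaller). RPS26 had a difference of 0.30 on the log2 scale (SE 0.0557, 95% interval 0.19 to 0.42, edgeR adjusted p = 0.00318) and kept its call in all 8 fits without a library. RPS27L differed by 0.30 (edgeR adjusted p = 0.0320) and lost its call in 4 of 8 fits, for example without siCtrl replicate 1 (adjusted p = 0.150). RPL28 differed by 0.17 (edgeR adjusted p = 0.0459) and lost its call in 7 of 8 fits. Only RPS26 was left without siCtrl replicate 1, 2 genes passed without siCtrl replicate 3, siCtrl replicate 4 or siUSP15 replicate 4, and 8 passed without siUSP15 replicate 3. Over all 82 genes the difference was above 0 for 65 and below 0 for 17, with a median of 0.05 against -0.01 for all genes, or 0.01 with scaling by total count. With the replicate number as a block 7 genes passed, and with scaling by total count 2. When a library was left out, the share of all genes that passed moved as well.

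The sets differed in siCtrl cells as well, and this comparison shares the set 1 siCtrl libraries with the set 1 response. Of 82 ribosomal protein genes, 44 were lower and 1 higher in set 1 siCtrl than in set 2 siCtrl (54.9%, where 55.4% of all genes passed, 29% higher and 26.4% lower), with a median of -0.10 against 0.02 for all genes tested. RPS26 had 131 and 135 CPM in set 1 and 178 and 184 CPM in set 2. Both set 1 siCtrl libraries lay well below both of set 2, and the log2 difference was -0.45 (SE 0.0398, edgeR adjusted p = 9.3e-08), beside a response of 0.26 in set 1. RPS27L had -0.17 (edgeR adjusted p = 0.0317) beside 0.28, and RPL28 had -0.12 (edgeR adjusted p = 0.0125) beside 0.16. Both of these calls were lost without siCtrl replicate 1, without siCtrl replicate 4 and with scaling by total count, and that of RPS27L also in DESeq2. Over the 8 fits without a library the difference stayed between -0.22 and -0.13 for RPS27L and between -0.16 and -0.10 for RPL28. RPS12 had a siCtrl difference of -0.30 and RPS2 of -0.31, beside set 1 responses of 0.06 and 0.09. RPL39L, the copy of RPL39, was the gene higher in set 1 (21.4 and 21.7 CPM in set 1 siCtrl and 14.9 and 16.98 CPM in set 2 siCtrl, log2 difference 0.43, edgeR adjusted p = 0.000929). Scaling by total count gave 9 higher and 22 lower here with a median of -0.03, leaving out siCtrl replicate 1 gave 1 higher and 23 lower, and leaving out siCtrl replicate 3 gave 2 and 34.

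**Figure D3:**
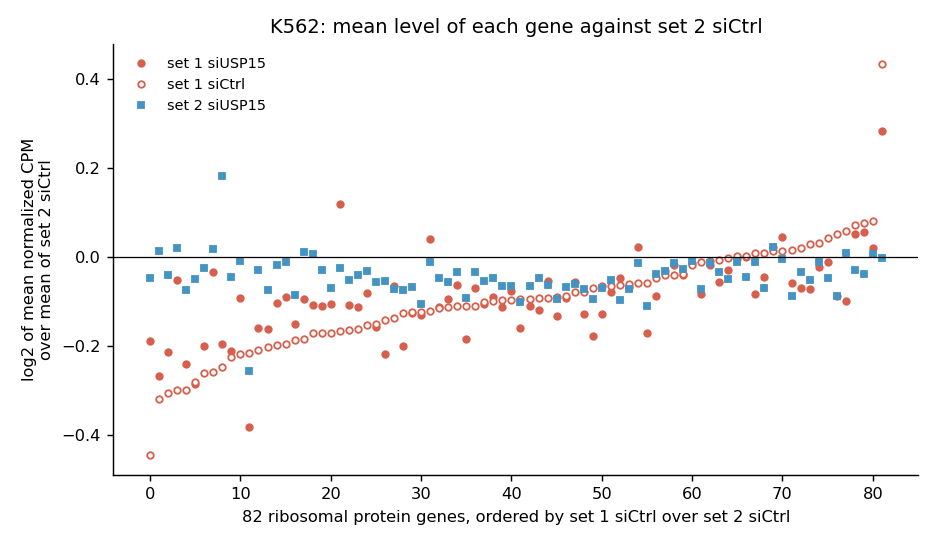
Log2 of the mean normalized CPM of set 1 siUSP15 (filled circles), set 1 siCtrl (open circles) and set 2 siUSP15 (squares) over the mean of set 2 siCtrl for 82 ribosomal protein genes, ordered by set 1 siCtrl. RPS26, at the left end, lies at -0.45 in set 1 siCtrl, and RPL39L, at the right end, at 0.43.

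The response of KBM7 was set against the mean K562 response in a fit of all 12 libraries, and 9 genes had the larger value in KBM7 and 1 the smaller (12% of 83, where 23.2% of all 15833 genes passed, 10.6% with the larger and 12.6% with the smaller value). RPS12 differed by 0.21 on the log2 scale (SE 0.0488, 95% interval 0.11 to 0.31, edgeR adjusted p = 0.00250) and kept its call in all 12 fits without a library. In K562 itself RPS12 had 1074 and 1073 CPM with siUSP15 and 1013 and 1049.7 CPM with siCtrl in set 1, and 1221 and 1188 CPM with siUSP15 and 1291 and 1246 CPM with siCtrl in set 2. Its siUSP15 libraries were thus the higher ones in set 1 and the lower ones in set 2, and neither set passed the threshold. RPL38 differed by 0.18 (edgeR adjusted p = 0.0149) and lost its call without KBM7 siCtrl replicate 2 (0.14, adjusted p = 0.135), KBM7 siUSP15 replicate 1 (adjusted p = 0.0714) or K562 siCtrl replicate 2 (adjusted p = 0.0506). RPL13A differed by -0.15 (edgeR adjusted p = 0.0297), and by -0.12 (adjusted p = 0.149) without KBM7 siCtrl replicate 1, and lost its call in 7 of the 12 fits (also without KBM7 siUSP15 replicate 1 or 2, K562 siCtrl replicate 1, 2 or 3, or K562 siUSP15 replicate 3).

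Among the other 7 genes with a larger value in KBM7 were RPS27A (0.18), RPL24 (0.17), RPL34 (0.16), RPS18 (0.15), RPL26 (0.15) and RPL4 (0.13). RPS27A encodes a fusion of ubiquitin with a small-subunit protein. In RPL24 the KBM7 libraries had 318 and 316 CPM with siUSP15 and 312 and 301 CPM with siCtrl, so the difference joins a KBM7 value of 0.05 with a K562 mean of -0.11. Each of these 7 genes lost its call in 4 to 10 of the 12 fits without a library. Without KBM7 siCtrl replicate 2, KBM7 siUSP15 replicate 1 or K562 siCtrl replicate 2 only RPS12 was left among the genes with the larger value in KBM7. There were 3 without K562 siCtrl replicate 3, 4 without K562 siCtrl replicate 1 or siUSP15 replicate 4, and 5 without K562 siUSP15 replicate 2, while 3 genes had the smaller value without KBM7 siUSP15 replicate 1. With the replicate number as a block 12 genes were larger and 2 smaller in KBM7, with scaling by total count 22 and 1, and without a term for the set 0 and 0. The lines were kept in separate tables and media, so line, culture and run cannot be told apart.

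In siCtrl cells the ribosomal protein mRNAs were mostly lower in KBM7 than in K562. Of 83 genes, 62 were lower and 14 higher (91.6%, where 85.5% of all genes passed, 43.6% higher and 41.9% lower), and the median log2 difference was -0.52 against 0.01 for all genes tested. Scaling by total count moved the median of all genes to 0.14 and that of the ribosomal protein genes to -0.40. The largest deficit was in RPL14, a large-subunit protein, with 413 ± 15.5 CPM in KBM7 and 1106 ± 96.3 CPM in K562 (mean ± SD, n = 2 and n = 4, all libraries scaled together). The KBM7 siCtrl libraries (402 and 424 CPM) lay far below the lowest K562 siCtrl library (1014 CPM), and the log2 difference was -1.42 (SE 0.0372, edgeR adjusted p = 6.22e-22). RPS12 (477 ± 11.7 CPM in KBM7 and 1189.7 ± 151 CPM in K562), RPLP2 (330.2 ± 8.06 and 746 ± 68.4 CPM) and RPS18 (790.0 ± 39.9 and 1769 ± 41.9 CPM) followed, with log2 differences of -1.31, -1.17 and -1.16. RPS21 was also lower (-1.07). These values exceed any response to siUSP15 among the ribosomal protein genes called in either line.

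The genes that were higher in KBM7 were led by RPL22L1, the copy of RPL22, with 54.0 ± 2.47 CPM in KBM7 and 26.6 ± 3.89 CPM in K562. All KBM7 siCtrl libraries lay above all K562 ones, and the log2 difference was 1.03 (edgeR adjusted p = 2.15e-15). RPL36A (21.0 ± 3.58 CPM in KBM7 and 11.2 ± 1.21 CPM in K562), RPL30, RPL39, RPS27L and RPL7 followed with log2 differences of 0.91, 0.58, 0.50, 0.44 and 0.35. Protein-coding genes as a whole differed by chromosome in the same comparison, and the ribosomal protein genes are given beside them. On chromosome 8 the 4 ribosomal protein genes had a median of 0.28 (all 444 protein-coding genes 0.89), on chromosome X 4 had 0.40 (467 genes, 0.73), and on chromosome 15 4 had 0.29 (417 genes, 0.52). On chromosome 3 the 9 ribosomal protein genes had -0.78 (721 genes, 0.26), and on chromosome 19 the 12 had -0.40 (1015 genes, -0.17). KBM7 is known as a near-haploid line that keeps an extra copy of chromosome 8 and of a segment of chromosome 15, but copy number was not measured here and its part in these values was not tested.

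The line difference was not limited to ribosomal protein genes. Protein-coding genes with transcripts of up to 1000 bases, which include many of the ribosomal protein genes, had a median of -0.41 (732 genes). Of 78 mitochondrial ribosomal protein genes 56 were lower and 14 higher in KBM7 with a median of -0.59. Of 81 nuclear-encoded respiratory chain genes 60 were lower and 10 higher with a median of -0.68. Among all genes tested 41.9% were lower and 43.6% higher. The part of transcript length in the difference was not tested.

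**Figure D4:**
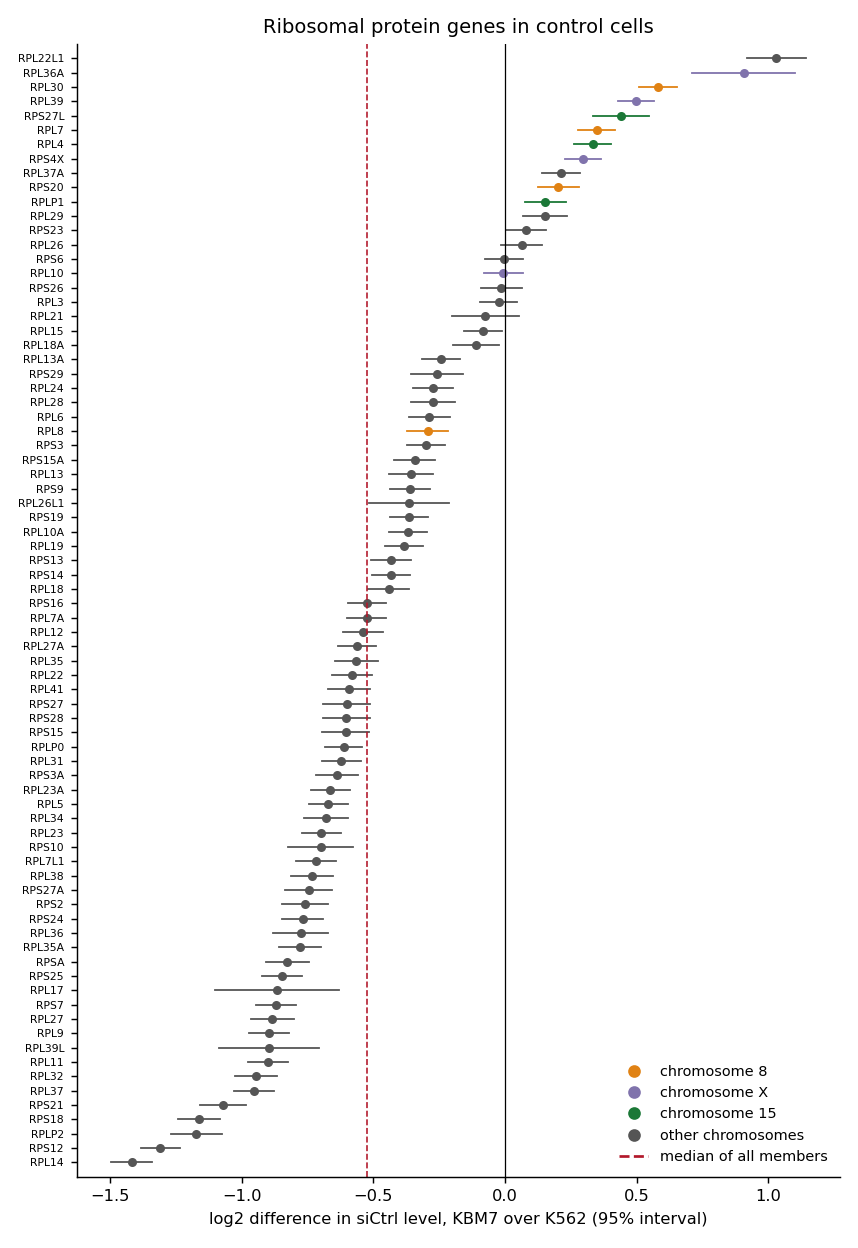
Log2 difference in siCtrl level, KBM7 over K562, of each ribosomal protein gene tested (points with 95% confidence intervals, without the second RPL41 row and a few genes not reported here), coloured for chromosomes 8, X and 15, with a dashed line at the median of -0.52 over all 83 genes. RPL22L1 at 1.03 and RPL14 at -1.42 are the ends.

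The order of levels per transcript length differed between the lines. In KBM7 siCtrl libraries RPL30 (1911 CPM per kb), RPS18 (1529) and RPL39 (1528) were among the 4 highest, and in K562 siCtrl libraries RPS18 (3115 CPM per kb), RPS12 (2286) and RPS24 (1998) were. These levels rest on a single transcript length per gene and on how reads of processed pseudogenes were counted, and ribosomal protein genes have many near-identical pseudogenes, so they are uncertain. The rows annotated as ribosomal protein pseudogenes took 0.00966% to 0.0124% of the counts of a library.

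The paralog copies took a different share of the counts of their pair in each line. RPS27L held 14.4% to 16.5% of the summed counts of RPS27L and RPS27 in KBM7 libraries and 7.71% to 9.53% in K562 libraries. RPL22L1, the copy of the large-subunit protein RPL22, held 12% to 12.6% of its pair in KBM7 and 4.04% to 5.01% in K562. RPL39L, which in human tissues is known mainly from testis, held 1.80% to 2.35% of its pair in KBM7 and 3.81% to 5.22% in K562. RPL26L1 held 8.74% to 10.1% in KBM7 and 11.2% to 13.9% in K562, and RPL7L1 24.3% to 25.9% in KBM7 and 41.1% to 43.4% in K562. In none of the 5 pairs did the ranges of the lines overlap, with both siRNAs included. These are shares of counts, so the longer transcript of a pair weighs more. With siUSP15 the copies RPS27L and RPL26L1 were called in set 1 (above), 0 of the 5 were called in KBM7 and 0 in set 2. RPL39L had 14.3 and 11.7 CPM in KBM7 siUSP15 libraries and 11.1 and 10.8 CPM in siCtrl libraries, a log2 fold change of 0.25 that did not pass (95% interval 0.01 to 0.50, edgeR adjusted p = 0.113).

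By subunit, where 29% of all genes passed in KBM7, 35.7% in set 1 and 2.29% in set 2, 1 of 31 small-subunit genes was higher and 0 lower in KBM7, with a median of 0.02, and 3 were higher and 3 lower in set 1, with a median of -0.00. Of 46 large-subunit genes 1 was higher and 1 lower in KBM7, with a median of 0.02, and 4 were higher and 2 lower in set 1, with a median of -0.00. In set 2 both subunits had a median of -0.05 and no call. Of the 7 Diamond-Blackfan anemia genes listed, among them RPS19, RPL5, RPL11, RPS26, RPS24 and RPL35A, 0 passed in KBM7 and in set 2, and RPS26 alone passed in set 1. RPS19, the gene most often mutated in that anemia, had 689 and 673 CPM in KBM7 siUSP15 libraries and 651 and 621 CPM in siCtrl libraries. The siUSP15 libraries were the higher ones, with a log2 fold change of 0.10 (edgeR adjusted p = 0.117). RPL5 and RPL11, the proteins that bind MDM2, had log2 fold changes of -0.07 and 0.08 in KBM7, -0.02 and 0.02 in set 1, and -0.07 and -0.06 in set 2, none past the threshold. RPS14, lost in the 5q- syndrome, had 0.08 in KBM7, -0.01 in set 1 and -0.01 in set 2, and RPS6, the substrate of the S6 kinases, had -0.01, -0.01 and -0.07, none past the threshold.

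In K562 set 1 most of the factors that build ribosomes rose, while few ribosomal protein genes passed. Of 45 ribosome biogenesis factors 35 were higher and 1 lower with siUSP15 (median 0.22), where 9 of 82 ribosomal protein genes were higher and 5 lower (median -0.00) and 17.5% of all genes were higher and 18.2% lower. LTV1, which helps to mature the small subunit, rose by 0.58 on the log2 scale, DKC1, the pseudouridine synthase of H/ACA particles, by 0.28, NOC2L by 0.27 and RRP9, of the U3 particle, by 0.41. Of 15 genes of RNA polymerase I and its factors 9 were higher and 1 lower, with UBTF, its main architectural factor, at 0.34. Of 14 genes for the 5S particle and for ribosomal protein chaperones 8 were higher and 1 lower, with GRWD1 at 0.34 and RRS1 at 0.37. In set 2, 0 of the 45, 0 of the 15 and 0 of the 14 passed, with medians of -0.03, -0.02 and -0.03, where 2.29% of all genes passed. The set difference of the response passed for 31 of the 45 biogenesis factors and for 4 of the 82 ribosomal protein genes, where 12.5% of all genes passed. In siCtrl cells 44 of the 45 biogenesis factors were lower in set 1 than in set 2 and 0 higher (median -0.45), where 26.4% of all genes were lower and 29% higher, and these siCtrl libraries are also those of the set 1 response. The part of the siCtrl difference in that response was not tested.

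**Figure D5:**
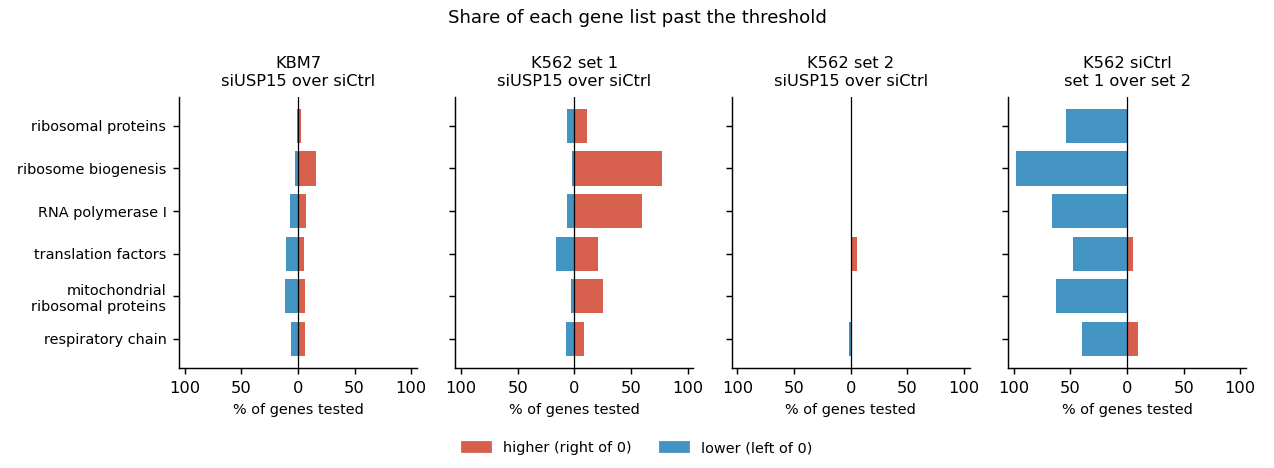
Percent of the tested genes of 6 lists that passed an adjusted p under 0.05, higher to the right of 0 and lower to the left, for siUSP15 over siCtrl in KBM7, K562 set 1 and K562 set 2 and for siCtrl in set 1 over set 2. In set 1 the biogenesis bar reaches 35 of 45 genes on the higher side, while the ribosomal protein bars stay at 9 and 5 of 82.

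In KBM7 fewer of the biogenesis, RNA polymerase I and 5S particle genes passed. The shares of all genes that stand beside the counts of these lists are 13.2% higher and 15.8% lower in KBM7 and 17.5% higher and 18.2% lower in set 1, and several of the lists lie near or under them. Of the 45 biogenesis factors 7 were higher, among them NOL6 (0.26) and PES1 (0.25), and NOP10 (-0.25) was lower. The upstream regulators of mTORC1, the TOP regulators and MYC counted 7 of 21 lower and 0 higher in KBM7, with MYC at -0.23 (edgeR adjusted p = 0.00194), and 4 of 19 higher and 0 lower in set 1, with MYC at 0.17 (edgeR adjusted p = 0.0256). Of 19 translation factors and other mRNAs with a TOP tract 1 was higher and 2 lower in KBM7, and 4 were higher and 3 lower in set 1. VIM, an intermediate filament gene whose mRNA has a TOP tract, rose by 0.44 on the log2 scale in KBM7 (edgeR adjusted p = 0.000109) and was the only call of the list in set 2 (0.24, edgeR adjusted p = 0.00367). EEF1A1, the elongation factor that brings tRNA to the ribosome, fell by 0.20 on the log2 scale in KBM7 (edgeR adjusted p = 0.00830). Among mitochondrial ribosomal protein genes 5 of 77 were higher and 9 lower in KBM7, and 20 of 78 were higher and 2 lower in set 1. Of 14 hosts of small nucleolar RNAs, many of them TOP mRNAs, 5 were higher and 0 lower in KBM7 and 4 were higher and 4 lower in set 1, with GAS5 at 0.26 in KBM7 and -0.24 in set 1. Of 16 genes for ribosome quality control and ribosome ubiquitination 1 was higher and 4 lower in KBM7, 3 were higher and 4 lower in set 1, and NEMF, which acts on stalled ribosomes, was the only call in set 2 (-0.24, edgeR adjusted p = 0.0194). The nuclear-encoded respiratory chain genes counted 5 higher and 5 lower of 79 in KBM7 and 7 and 6 of 81 in set 1, and the 13 mitochondrially encoded protein genes 0 and 0 in KBM7 and 8 and 0 in set 1.

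By start site, the median log2 fold change in KBM7 was 0.02 for the 47 with a C and at least 4 pyrimidines at a listed start and 0.02 for the 19 without. In set 1 the medians were -0.01 (3 higher and 3 lower) and 0.02 (4 higher and 1 lower), where 17.5% of all genes were higher and 18.2% lower. The difference between these groups was not tested. In the siCtrl difference of KBM7 from K562 the medians were -0.54 and -0.37. Across the 82 genes in set 1 the log2 fold change had a Pearson correlation of 0.23 and a Spearman correlation of 0.30 with the GC content of the transcript (0.04 and 0.08 over all protein-coding genes). In set 2 the correlations were 0.15 and 0.26 (0.10 and 0.15 over all protein-coding genes). In KBM7 they were -0.07 and -0.14 (-0.02 and -0.06 over all protein-coding genes). These are across genes of the same libraries, which are not independent replicates.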

How the data were processed

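RNA sequencing libraries of KBM7 (4) and K562 (8) were analysed from the read counts per gene that the authors deposited, with 1 table for each line. Per the submitters' processing notes, reads were aligned with TopHat2 2.1.0 to hg38 and counted with HTSeq, and the notes name edgeR and limma. The study's methods name another counter (Itreecount, with Ensembl annotation) and DEGseq, and the instrument also differs between the labels and the methods. The K562 table is named as batch corrected, but its count columns hold whole numbers and were used as deposited. The tables also hold log2 values per library and the authors' own comparisons (log2 fold change, mean level and adjusted p), which were not used.

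Genes were kept by filterByExpr (minimum count 10), libraries were scaled by TMM, and edgeR (version 4.0.16, under R 4.3.3) fitted its quasi-likelihood model, with Benjamini-Hochberg adjustment over all genes tested and a threshold of 0.05, 2-sided. KBM7 was fitted alone, K562 with a level for each siRNA in each set, and all 12 libraries together for differences between the lines. Intervals are 95% confidence intervals of the fit. Printed CPM are scaled within a line, or over all 12 libraries where this is said. Total counts were 23020401 to 43566543, so for all but a few rows the spread between libraries, not the depth, limits the precision. Levels per kb used the length of a single GENCODE transcript per gene.

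The ribosomal protein genes, the other lists and the rule for named genes were chosen with earlier results of these data known. In each comparison up to 6 of the largest increases and 6 of the largest decreases past the threshold were named (up to 2 of the lowest p where none passed), with the paralog copies, the Diamond-Blackfan anemia genes, RPS14, RPS6 and USP15. Of each other list up to 4 genes of lowest p were eligible. Genes named beyond these limits (among them RPLP0, RPLP2, RPS2 and RPL10A in set 1) were chosen after their values were seen. A few genes are not reported here by name and remain in the fits and counts.

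Same-numbered K562 siUSP15 and siCtrl libraries deviated together from the means of their siRNA (correlations 0.65, 0.52, 0.60 and 0.57 for replicates 1 to 4), which span both sets. Within a set they did not (0.017 in set 1 and 0.087 in set 2), so beyond the sets the data show no pairing by number, and no label states one. The fits with the replicate number as a block are therefore given as alternatives. Alternatives were RLE size factors, total count scaling, TMM without ribosomal protein genes, no filter on low counts, DESeq2 1.42.0, limma-voom (limma 3.58.1), a replicate block, no set term, the libraries of a set alone, all libraries in 1 fit and each library left out. Leaving out a library left its group with 1 library, and the share of all genes called moved too. A lost call in those fits need not be particular to a ribosomal protein gene. Figures were drawn with matplotlib 3.10.9.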

Additional observations from a re-analysis of the deposited data

Results flagged for a closer look

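The siUSP15 response differed between K562 set 1 and set 2, by a test of the difference itself in edgeR, for 4 genes, among them RPS26 (0.30 on the log2 scale), RPS27L (0.30) and RPL28 (0.17), each larger in set 1. The siCtrl libraries of set 1 also lay lower than those of set 2 for RPS26. For RPS27L and RPL28 they did so too, but those calls were lost without siCtrl replicate 1 or 4 and with scaling by total count, and that of RPS27L also in DESeq2. The part of the siCtrl levels in the difference was not tested.

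The response differed between KBM7 and K562 by the same kind of test for 10 genes. Among them it was larger in KBM7 for RPS12 (0.21 on the log2 scale), RPL38 (0.18), RPS27A (0.18), RPL24 (0.17), RPL34 (0.16), RPS18 (0.15), RPL26 (0.15) and RPL4 (0.13), and smaller in KBM7 for RPL13A (-0.15).

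RPL21 had 45.4 normalized CPM in K562 siCtrl replicate 2, apart from the other 3 siCtrl libraries of that line. It was the only such value in 94 groups of 4 libraries. For draws from a single distribution, chance alone sets a library apart in about 1 in 20 groups. Each group here joins libraries of both sets, and the groups share libraries, so that rate need not hold for them.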

How the results depend on the processing

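Of 3861 values of named genes under the alternatives, 3561 kept their side of the threshold, 240 lost a call and 57 gained one. In the other 3 the sign changed and the main fit or the alternative had a call. Values with no call in either fit were taken as kept whatever their sign, so sign changes among them were not counted. The 3 were RPL3 (0.10), RPS26 (0.11) and RPS6 (0.12) in the siCtrl difference between the lines under total count scaling, none of them called at the outset. Total count scaling gave 9 higher in KBM7, 10 lower in set 1, 2 for the set difference, 22 larger in KBM7 for the line difference, and 9 higher and 22 lower for siCtrl set 1 against set 2. RLE factors, TMM without ribosomal protein genes, DESeq2 and the 4 libraries of the set alone each gave 3 lower in set 1. Without a filter there were 8 higher and 2 lower in KBM7, 14 higher and 0 lower in set 1, 5 lower in the K562 mean, 14 for the set difference and 2 smaller in KBM7 for the line difference. Limma-voom gave 5 higher and 2 lower in KBM7, and the fit of all 12 libraries 5 higher. Without a set term the K562 mean gave 0 and 0 and the line difference 0 and 0. The cause of these shifts was not tested.

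With the replicate block, set 1 gave 10 higher and 8 lower, the K562 mean 5 and 14, the set difference 7 and 0, and the line difference 12 and 2; KBM7, whose same-numbered libraries did not deviate together, gave 2 and 1.

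Leaving out each library in turn gave 1 to 13 higher and 1 to 5 lower in KBM7, 3 to 10 higher and 0 to 3 lower in set 1, 0 in set 2, 1 to 5 higher and 0 to 9 lower for the K562 mean, 1 to 8 and 0 for the set difference, 1 to 10 and 0 to 3 for the line difference, 1 to 2 and 23 to 48 for the siCtrl sets, and 13 to 14 and 60 to 62 for the siCtrl lines. The share of all genes called moved in these fits as well. Set 2 had 0 calls in edgeR, DESeq2 and limma-voom, with 14 genes at an unadjusted p under 0.05 in edgeR. RPL3L, at 0 to 1 counts in a library, did not pass the filter on low counts.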
